A study of Mus musculus with 6 samples.

Results

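Mitochondrial respiratory chain subunits are the proteins, coded in the nucleus or in mitochondrial DNA, that build the 5 enzyme complexes of oxidative phosphorylation. Their nuclear genes were taken from the count table of immortalized mouse pancreatic fibroblasts by symbol, as the Nduf (families a, b, c, s and v), Sdh, Uqcr, Cox4 to Cox8 and Atp5 genes. This gave 79 of the 14831 listed genes, with 38 for complex I, 4 for complex II, 8 for complex III, 12 for complex IV and 17 for complex V. RNAseq of polyadenylated RNA was run on 6 libraries, 3 labelled WT and 3 labelled Gli2-/-;Gli3-/- (called KO), each from its own confluent well of a cell line of mixed strain. Per the methods of the study, the lines were derived from adult pancreas of mice with floxed Gli alleles, and immortalized cells were infected with a GFP adenovirus plus a dsRed lentivirus for WT or with GFP and Cre adenoviruses for KO, then sorted and screened for recombination. The serum-containing medium and the immortalization were shared by both groups. Neither labels nor methods say that the libraries of a group came from more than 1 line, so p-values measure the spread between wells. The comparison asks how subunit transcripts differ between fibroblasts with and without both Gli factors, the transcription factors at the end of Hedgehog signalling.

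The respiratory chain passes electrons from NADH through complex I, and from succinate through complex II, to coenzyme Q. Complex III hands them to cytochrome c, and complex IV delivers them to oxygen. Complexes I, III and IV pump protons across the inner membrane, and complex V (ATP synthase) uses the return flow to make ATP. Complex II belongs to the citric acid cycle as well, and it pumps no protons.

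Totals ranged from 31728420 to 41035931 counts a library, and wells of a group differed beyond counting error (chi-square over degrees of freedom from 2.50 to 7.74). Gli2 and Gli3, the deleted genes, went against the labels. The 3 libraries with the WT label held 809, 944 and 868 Gli2 counts and the 3 with the KO label 1932, 2316 and 1926, a log2 fold change of 1.05 (edgeR quasi-likelihood test, adjusted p = 8.01e-10). For Gli3 these counts were 392, 416 and 398 against 1434, 1637 and 1404, a log2 fold change of 1.71 (adjusted p = 2.1e-11). These are counts over the whole gene, in which the loss of single exons cannot be seen. All directions below are therefore given as the libraries labelled KO against those labelled WT. Of the fibroblast markers, 7 of 8 were in the table. Their summed level was 36039 to 38079 CPM (counts relative to the library's total, scaled by TMM) in the libraries labelled WT and 32302 to 33664 CPM in those labelled KO, Thy1 was near 0, and 5 of 6 tested were lower, led by Dcn with a log2 fold change of -1.55. Of the epithelial markers, 5 of 10 were in the table, with 20.2 to 22.7 against 44.0 to 45.5 CPM, Krt7 rose by a log2 fold change of 2.40, Sox9 fell with -0.50 (adjusted p = 0.000173), and Krt8 was near 0. The 3 macrophage markers of 6 in the table summed to 39.5 to 45.5 against 38.4 to 40.1 CPM, nearly all from Lyz2. None of the 4 endothelial markers was found in the table under the symbols searched. The part of these markers in the results below was not tested.

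The promoters of 4 genes are shown, since these had the largest called changes in each direction among genes of complexes I to IV with an entry in RefSeq's promoter windows (GRCm38.p6, 250 bases before to 50 after a gene's start, printed along the gene's strand). Complex V was left out of this choice, although its gene Atp5k has a window and a larger called change (log2 fold change -0.50). Ndufv3 (chr17:31519865-31520164, plus strand) and Ndufa6 (chr15:82354242-82354541, minus strand) fell, whereas Sdhd (chr9:50603800-50604099, minus strand) and Cox7a2 (chr9:79759804-79760103, minus strand) rose. Capitals mark matches to the core motifs searched, which were NRF1 (GCATGCGC), ETS (GABPA, CCGGAAG), YY1 (AAGATGGC) and GLI (CCACCCA), on both strands.
Ndufv3: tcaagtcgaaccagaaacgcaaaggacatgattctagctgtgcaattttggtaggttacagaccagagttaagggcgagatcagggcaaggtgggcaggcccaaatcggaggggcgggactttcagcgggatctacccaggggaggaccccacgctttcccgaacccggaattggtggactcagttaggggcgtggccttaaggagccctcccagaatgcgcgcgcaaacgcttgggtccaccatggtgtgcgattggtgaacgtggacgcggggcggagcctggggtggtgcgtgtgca
Ndufa6: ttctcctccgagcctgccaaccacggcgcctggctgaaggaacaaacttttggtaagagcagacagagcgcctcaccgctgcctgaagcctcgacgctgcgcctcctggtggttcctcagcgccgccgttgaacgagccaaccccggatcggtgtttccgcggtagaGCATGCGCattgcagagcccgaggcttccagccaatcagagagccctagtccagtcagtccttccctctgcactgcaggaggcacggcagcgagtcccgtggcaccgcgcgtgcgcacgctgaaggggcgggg
Sdhd: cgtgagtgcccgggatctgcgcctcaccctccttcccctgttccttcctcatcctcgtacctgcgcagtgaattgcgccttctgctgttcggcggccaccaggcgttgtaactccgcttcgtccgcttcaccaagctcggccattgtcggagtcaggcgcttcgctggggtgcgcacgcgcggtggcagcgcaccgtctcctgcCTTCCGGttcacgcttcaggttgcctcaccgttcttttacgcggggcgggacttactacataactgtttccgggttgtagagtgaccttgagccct
Cox7a2: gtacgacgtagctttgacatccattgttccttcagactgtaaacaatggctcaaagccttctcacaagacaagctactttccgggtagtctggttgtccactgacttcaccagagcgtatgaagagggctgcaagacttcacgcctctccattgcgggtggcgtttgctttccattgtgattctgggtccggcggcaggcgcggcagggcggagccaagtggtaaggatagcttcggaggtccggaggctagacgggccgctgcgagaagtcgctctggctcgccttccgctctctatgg
The Ndufa6 window held an NRF1 core as written, the Sdhd window held an ETS core on the reverse strand, and these letters were not in the windows of Ndufv3 and Cox7a2. NRF1 and GABPA are transcription factors known for their sites in promoters of nuclear respiratory chain genes, and YY1 is another.

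Windows were given for 63 of the 79 subunit genes, and those of the chain held 3 of the 4 motifs more often than promoters at large. The NRF1 core was in 10 of 63 (15.9%), among them Ndufa6, Ndufa8, Sdhb, Uqcrc1 and Cox6a1, against 3.05% of all 27025 genes with windows and 6.05% of the tested genes. The ETS core was in 17 of 63 (27.0%), among them Sdhd, Sdhb, Ndufb7, Ndufs8 and Cox6b1, against 9.93% and 20.4%. The YY1 core was in 9 (14.3%, against 3.19% and 5.39%) and the GLI core in 5 (7.94%, against 10.6% and 11.2%). By direction, the NRF1 core stood in 6 of 28 windows of genes that fell, 1 of 9 that rose and 3 of 26 without a call. The ETS core stood in 5, 3 and 9 of the same windows, the YY1 core in 1, 1 and 7, and the GLI core in 2, 1 and 2. A match describes letters and is not a site.

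Of the 79 genes, 77 had enough counts to be tested, and they leaned towards lower levels in the libraries labelled KO by small amounts. At an adjusted p under 0.05, 35 were lower (45.5%) and 11 higher (14.3%), where 28.8% of all 14289 tested genes were lower and 29.9% higher. The called share as a whole, 46 of 77, was near the 58.7% of all genes, so the lean is in the direction and not in the number of calls. The members' median log2 fold change was -0.09 (quartiles -0.20 and 0.05), against 0.00 (quartiles -0.20 and 0.24) over all tested genes. Upper-quartile scaling, which moved the median of all genes to 0.06, left 23 of 77 members lower, where 23.0% of all genes were then lower and 36.3% higher. The count of members that were higher was 5 to 7 without WT replicate 2, WT replicate 3, KO replicate 1 or KO replicate 2 and 18 without KO replicate 3. Over all tested genes 26.6% to 27.6% were higher in the former fits and 28.9% without KO replicate 3. Called changes of 1.5-fold or more made up 1.30% of members and 17.7% of all genes, and no member had one under upper-quartile scaling, with total counts and without KO replicate 3. Among genes with a mean of at least 10 CPM, 34 of 74 members (45.9%) and 35.8% of 9199 genes were lower, and 11 members (14.9%) and 29.4% of genes higher. The groups did not overlap for 35 members that were lower and 10 that were higher, where 31.3% and 32.9% of all genes did not overlap in those directions. In bulk RNA, fewer cells of a type and less RNA per cell cannot be told apart.

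**Figure D1:**
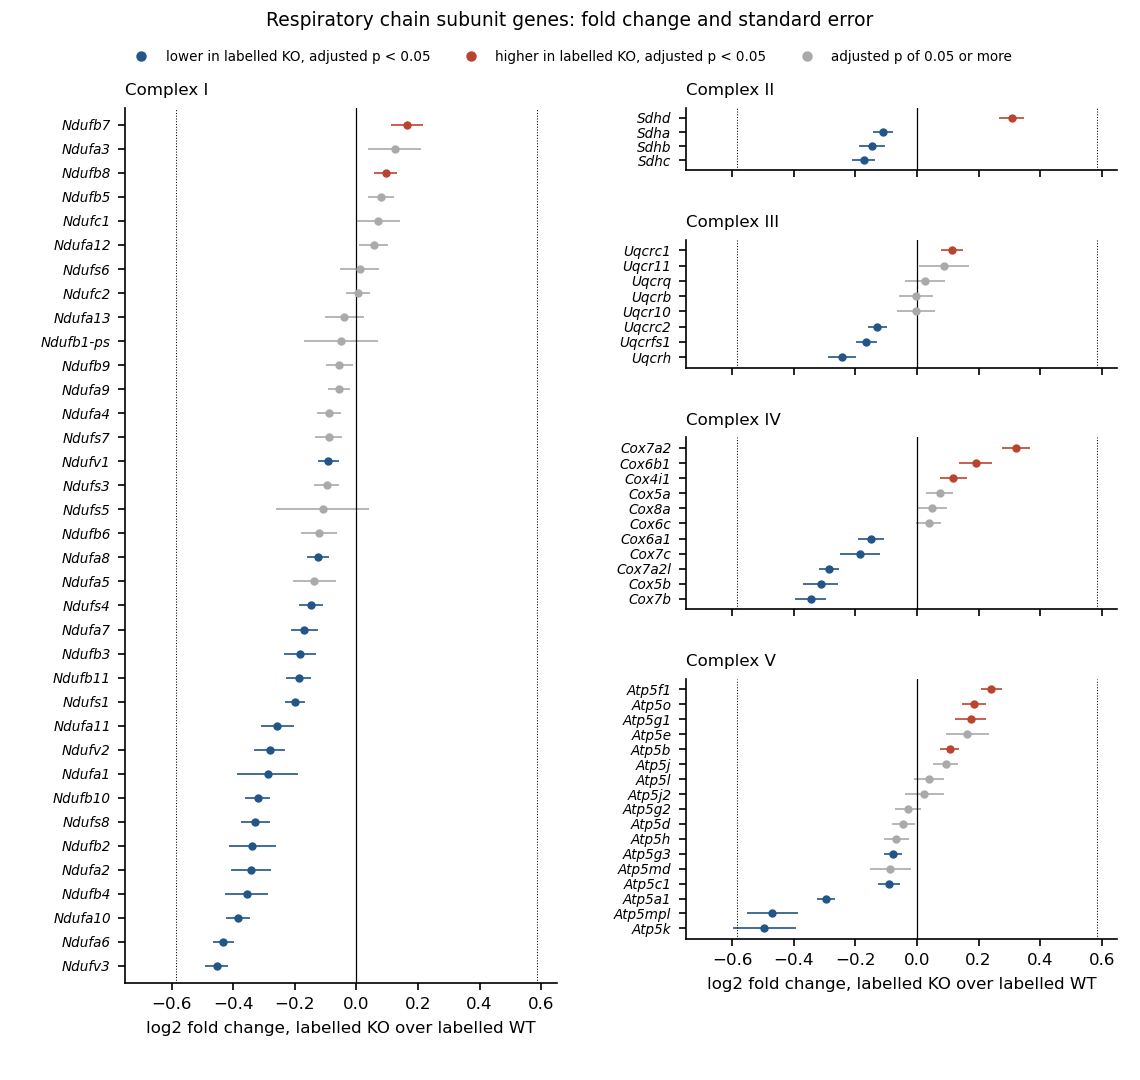
Log2 fold change of the tested subunit genes, libraries labelled KO over those labelled WT, by complex, with bars for the standard error and dotted lines at 1.5-fold. Ndufv3 and Ndufa6 lie furthest left among the complex I genes drawn, Sdhd and Cox7a2 lie furthest right of all, and 1 tested gene of complex I is not drawn.

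Complex I is the largest of the complexes and the entry point for NADH. Of its 37 tested genes, 19 were lower (51.4%), 2 were higher (5.41%) and 16 were not called, against 28.8% lower and 29.9% higher over all tested genes. The median log2 fold change of complex I was -0.12.

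Ndufv3, a small subunit next to the NADH-binding flavoprotein, and Ndufa6, an accessory subunit of the peripheral arm, were among the genes that fell. Ndufv3 was at 50.5, 49.3 and 51.0 against 37.3, 36.8 and 36.0 CPM, a log2 fold change of -0.45 ± 0.04 (SE, adjusted p = 3.77e-07). Ndufa6 was at 75.6, 76.1 and 73.6 against 57.1, 55.7 and 54.1 CPM, a log2 fold change of -0.43 ± 0.03 (SE, adjusted p = 3.5e-07). In both genes every library labelled KO was below every library labelled WT, by 27.0% for Ndufv3 and 25.9% for Ndufa6 in the fit. Ndufa10 fell by 0.38 on the log2 scale, and the accessory genes Ndufa1, Ndufa2, Ndufa7, Ndufa8, Ndufa11, Ndufb2, Ndufb3, Ndufb4, Ndufb10, Ndufb11 and Ndufs4 fell with log2 fold changes between -0.36 and -0.12. Of these calls, those of Ndufa1, Ndufa8, Ndufb3 and Ndufs4 were lost under upper-quartile scaling. Those of Ndufa1, Ndufa8, Ndufb3 and Ndufb11 were lost after correction for GC content and length, and that of Ndufa8 also with total counts. The 16 genes without a call, among them Ndufa9, Ndufa12, Ndufa13, Ndufb9 and Ndufc2, ranged from -0.14 to 0.12.

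The catalytic core of complex I carries the flavin and the iron-sulphur clusters. Of its genes, Ndufs8 was 20.4% lower (log2 fold change -0.33), Ndufv2 17.7% lower (-0.28) and Ndufs1 12.9% lower (-0.20), whereas Ndufv1, which binds NADH, was 6.12% lower (-0.09, adjusted p = 0.0371). The Ndufv1 call was lost under 9 of 15 alternatives, among them leaving out each library but WT replicate 3, and that of Ndufa1 was lost without WT replicate 1 or KO replicate 3. Ndufs3 (log2 fold change -0.10, adjusted p = 0.0539) and Ndufs7 (-0.09, adjusted p = 0.0905) did not pass.

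Ndufb7 and Ndufb8, accessory subunits of the membrane arm, were the complex I genes that rose. Ndufb7 was at 39.3, 39.2 and 39.2 against 45.6, 46.1 and 40.0 CPM, a log2 fold change of 0.16 ± 0.05 (SE, adjusted p = 0.0154). KO replicate 3 lay just above the WT libraries. Ndufb8 had a log2 fold change of 0.10 ± 0.04 (SE, adjusted p = 0.0416). The Ndufb7 call was lost without WT replicate 2, KO replicate 1 or KO replicate 2, and the Ndufb8 call without each library but KO replicate 3. DESeq2, limma on the deposited log2 values and correction for GC content and length also lost the Ndufb8 call. Ndufa4, which sits in complex IV in many preparations although it is named for complex I, had a log2 fold change of -0.09 (adjusted p = 0.0747). Its paralogue Ndufa4l2 was at 0.0638 to 0.364 CPM and was not tested.

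Complex II has 4 subunits, all coded in the nucleus, and 3 fell (75%) while the fourth rose (25%). Over all tested genes these shares were 28.8% and 29.9%. Sdha, the flavoprotein that oxidizes succinate, was at 313, 307 and 296 against 291, 283 and 274 CPM, a log2 fold change of -0.11 ± 0.03 (SE, adjusted p = 0.011). This call was lost under upper-quartile scaling and total counts. Sdhb, the iron-sulphur subunit, was at 35.0, 37.2 and 36.4 against 31.9, 33.5 and 32.8 CPM (log2 fold change -0.15, adjusted p = 0.00978, call lost under upper-quartile scaling). Sdhc, a membrane anchor, was at 121, 129.5 and 120.4 against 112, 111 and 107 CPM (log2 fold change -0.17, adjusted p = 0.00118).
Sdhd (ENSMUSG00000000171.5, GRCm38 chr9:50596357-50603812, minus strand), the other anchor, was at 55.6, 56.1 and 51.1 against 67.7, 68.1 and 65.7 CPM. It was 23.8% higher in the libraries labelled KO, a log2 fold change of 0.31 ± 0.04 (SE, adjusted p = 3.22e-05), and was called under all 15 alternatives. The anchors form a pair in the membrane. The log2 ratio of Sdhc over Sdhd CPM, which does not depend on scaling between libraries, was 1.19 ± 0.06 (SD, n = 3) against 0.71 ± 0.01 (SD, n = 3). This ratio pairs genes called in opposite directions, so it restates their fold changes, and it was not tested. Timm8b, whose start lies 98 bases from that of Sdhd on the other strand, had a log2 fold change of 0.05 (adjusted p = 0.523).

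**Figure D2:**
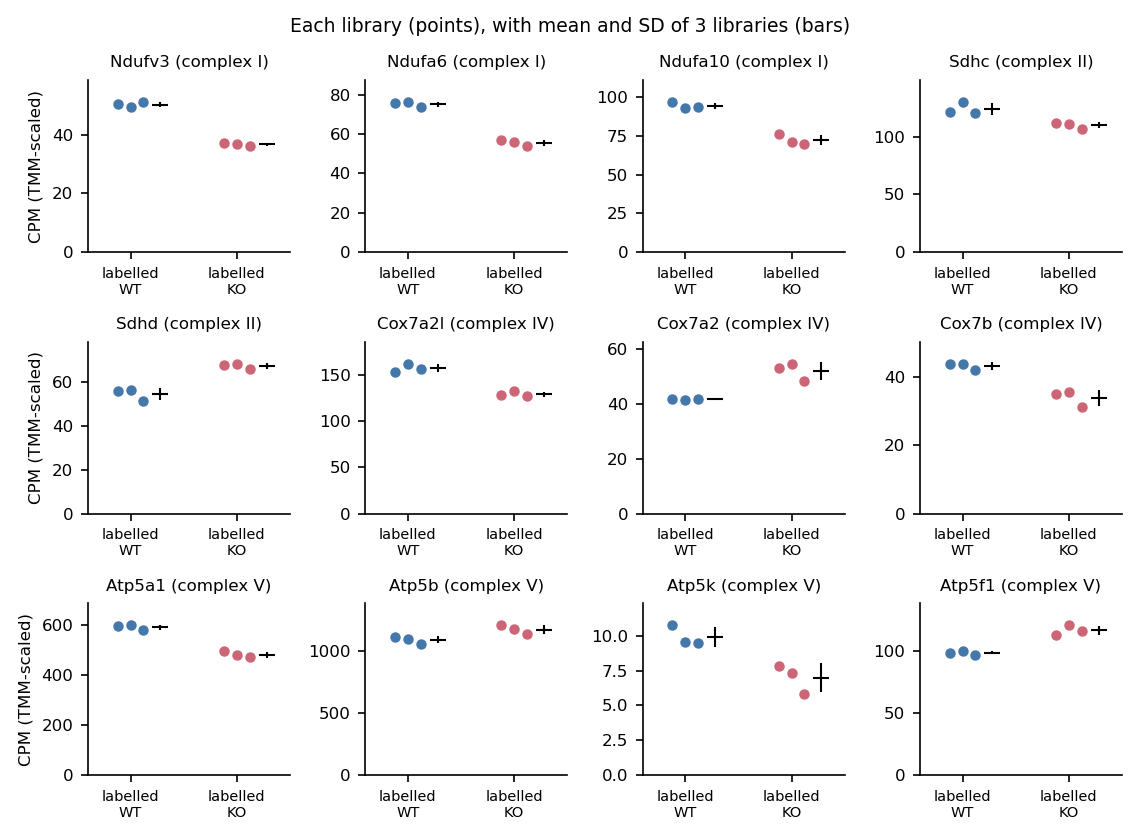
TMM-scaled CPM of 12 subunit genes in each of the 6 libraries, with the mean and SD of each group of 3 drawn beside the points. The axes start at 0, and Sdhd, Cox7a2, Atp5b and Atp5f1 are the panels where the libraries labelled KO are higher.

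Complex III, the cytochrome bc1 complex, had 3 of 8 genes lower (37.5%), 1 higher (12.5%) and 4 not called. Its median log2 fold change was -0.00, and 28.8% of all tested genes were lower and 29.9% higher. Uqcrh, the hinge protein beside cytochrome c1, was at 45.0, 45.6 and 46.9 against 40.2, 39.8 and 36.1 CPM, a log2 fold change of -0.24 ± 0.05 (SE, adjusted p = 0.000575). Uqcrfs1, the Rieske iron-sulphur protein, was 10.8% lower (log2 fold change -0.16, adjusted p = 0.00108), and Uqcrc2, a core protein, was 8.55% lower (log2 fold change -0.13, adjusted p = 0.0029, call lost under upper-quartile scaling). The other core protein, Uqcrc1, was 8.21% higher, at 126, 123 and 117 against 134, 135 and 127 CPM (log2 fold change 0.11, adjusted p = 0.0179). The Uqcrc1 call was lost without WT replicate 3, KO replicate 1 or KO replicate 2 (largest adjusted p = 0.0947). The 4 genes without a call, Uqcr10, Uqcr11, Uqcrb and Uqcrq, had log2 fold changes from -0.00 to 0.09.

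Complex IV, cytochrome c oxidase, had 5 of 11 tested genes lower (45.5%), 3 higher (27.3%) and 3 not called. Its median log2 fold change was 0.04, and 28.8% of all tested genes were lower and 29.9% higher. Cox7b was at 43.8, 43.8 and 41.9 against 35.0, 35.5 and 31.3 CPM, a log2 fold change of -0.35 ± 0.05 (SE, adjusted p = 6.48e-05). Cox5b, the zinc-binding subunit, had a log2 fold change of -0.31 ± 0.06 (SE, adjusted p = 0.000471), and 11.9% of the 50-base windows of its transcripts occur in another annotated gene. Cox7c and Cox6a1 also fell, with log2 fold changes of -0.19 and -0.15 (both calls lost under upper-quartile scaling), and the genes without a call, Cox5a, Cox6c and Cox8a, had 0.04 to 0.07. Without WT replicate 1, WT replicate 2 or KO replicate 3 the Cox7c call was lost, as it was with total counts and after correction for GC content and length.

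Cox7a2 and Cox7a2l are paralogues whose products take related places, the first in complex IV itself and the second joining complexes III and IV into supercomplexes. Cox7a2l (ENSMUSG00000024248.14, GRCm38 chr17:83501918-83517330, minus strand) was at 154, 162 and 157 against 129, 133 and 127 CPM, a log2 fold change of -0.28 ± 0.03 (SE, adjusted p = 8.04e-06). Cox7a2 (ENSMUSG00000032330.7, GRCm38 chr9:79755361-79759878, minus strand) was at 41.9, 41.3 and 41.6 against 53.0, 54.4 and 48.3 CPM, a log2 fold change of 0.32 ± 0.05 (SE, adjusted p = 6.03e-05). The log2 ratio of the paralogues' CPM went from 1.92 ± 0.05 to 1.32 ± 0.07 (SD, n = 3 each), so that the excess of Cox7a2l was smaller in every library labelled KO. As the paralogues were called in opposite directions, this ratio restates their fold changes, and it was not tested. Of the Cox7a2l windows, 13.8% are shared with a pseudogene that is not listed in the table.

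Among the isoforms that differ between tissues, the widely used forms were present. Cox4i1 was at 299.6 to 325 CPM and at 321 to 362 CPM, a log2 fold change of 0.12 (adjusted p = 0.0344) whose groups overlapped, and this call was lost without WT replicate 2 or 3 or KO replicate 1 or 2. Cox6b1 was 14.1% higher (log2 fold change 0.19, adjusted p = 0.00723), also with overlapping groups, and Cox8a had a log2 fold change of 0.05 (adjusted p = 0.403). The heart and muscle form Cox6a2 was at 0.0626 to 0.650 CPM and was not tested, while Cox4i2, Cox6b2, Cox7a1 and Cox8b were not found under these symbols.

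Complex V, ATP synthase, had 5 of 17 genes lower (29.4%), 4 higher (23.5%) and 8 not called, with a median log2 fold change of -0.03. The lower share was near the 28.8% of all tested genes, of which 29.9% were higher. Atp5a1 and Atp5b code for the alpha and beta subunits, which alternate in equal number in the catalytic head. Atp5a1 (ENSMUSG00000025428.15) was at 595, 598 and 579 against 494, 479.8 and 471 CPM, a log2 fold change of -0.29 ± 0.03 (SE, adjusted p = 2.56e-06). Atp5b (ENSMUSG00000025393.12) was at 1113, 1095 and 1058 against 1205, 1177 and 1133 CPM, a log2 fold change of 0.11 ± 0.03 (SE, adjusted p = 0.0119). Within a library the log2 ratio of Atp5a1 over Atp5b went from -0.88 ± 0.02 to -1.28 ± 0.01 (SD, n = 3 each). Here too the genes were called in opposite directions, so the ratio restates their fold changes, and it was not tested. Atp5a1 was called under all alternatives, whereas Atp5b lost its call without WT replicate 3, KO replicate 1 or KO replicate 2 (largest adjusted p = 0.0695). Atp5c1, the central stalk's gamma subunit, fell by 0.09 on the log2 scale (adjusted p = 0.0402), and the 8 genes without a call ranged from -0.09 to 0.16.

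Atp5k and Atp5mpl, small membrane subunits that hold ATP synthase in dimers and rows, fell most in the complex. Atp5k was at 10.8, 9.55 and 9.46 against 7.85, 7.32 and 5.85 CPM, a log2 fold change of -0.50 ± 0.10 (SE, adjusted p = 0.00112). Atp5mpl was at 22.2, 22.5 and 20.6 against 15.7, 17.8 and 13.5 CPM, a log2 fold change of -0.47 ± 0.08 (SE, adjusted p = 0.000318). Both were among the less abundant members, and their errors were larger. Atp5f1 and Atp5o, which belong to the peripheral stalk, rose by log2 fold changes of 0.24 (adjusted p = 4.68e-05) and 0.18 (adjusted p = 0.00156). Atp5h and Atp5j of the same stalk were not called (-0.07, adjusted p = 0.169, and 0.09, adjusted p = 0.0615). Atp5f1 exons overlap 540 bases of genes on the opposite strand, among them Wdr77, which rose by 0.29 (adjusted p = 0.00018). Of the genes for the c subunit of the membrane rotor, which code for the same mature protein, Atp5g1 was higher (log2 fold change 0.17, adjusted p = 0.00981), Atp5g3 lower (-0.08, adjusted p = 0.0394) and Atp5g2 not called (-0.03, adjusted p = 0.56). Upper-quartile scaling gave Atp5g2 a log2 fold change of 0.03. The Atp5g1 call was lost without WT replicate 2 or KO replicate 1. That of Atp5g3 was lost without any library but WT replicate 3 or KO replicate 1, and that of Atp5c1 without any but WT replicate 1. Both Atp5g3 and Atp5c1 also lost their calls under upper-quartile scaling, total counts, DESeq2 and correction for GC content and length. A filter of at least 10 counts in every library lost these 2 calls as well.

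Summed over its genes, complex I had the largest difference of the 5 complexes. Its 38 genes summed to 2074, 2042 and 1995 CPM under the WT label and to 1810, 1801 and 1697 CPM under the KO label. The means were 2037 ± 40.0 and 1769.5 ± 62.9 CPM (SD, n = 3), 13.1% lower, and the two-sided exact permutation test gave p = 0.1, the smallest it can give with 3 libraries a group. Complex II was 5.24% lower, also with an exact permutation p = 0.1. Complexes III, IV and V were 1.74%, 1.92% and 0.776% lower (exact permutation p = 0.6, 0.6 and 0.7), and for these 3 the sign turned under upper-quartile scaling, total counts and without KO replicate 3. All members together held 0.703 ± 0.0153% of all counts with the WT label and 0.685 ± 0.0280% with the KO label (SD, n = 3).

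The ratio of complex I to complexes II to V within each library, chosen after the values were seen and given without a test, needs no scaling. It was 0.402, 0.398 and 0.404 with the WT label and 0.355, 0.353 and 0.355 with the KO label. The groups did not overlap, and the mean was 11.7% lower in the libraries labelled KO.

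**Figure D3:**
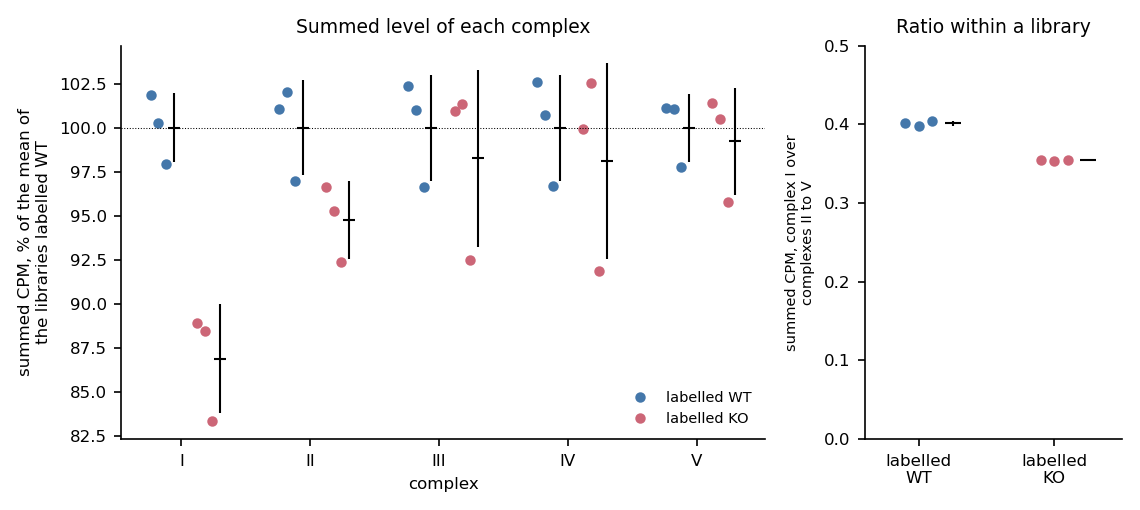
Summed TMM-scaled CPM of each complex as a percent of the mean of the libraries labelled WT (left), and the ratio of complex I to complexes II to V within each library (right), with points for libraries and bars for the mean and SD of 3. Complex I is 13.1% lower in the libraries labelled KO, while complexes III to V overlap between groups, and the left axis does not start at 0.

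Compared per length, the levels spanned a wide range. Atp5b was the highest member, at 257 CPM per kilobase of annotated exons in the libraries labelled WT and 276 in those labelled KO. Cox4i1 led complex IV at 203 and 220.2 CPM per kilobase, Uqcr11 led complex III at 89.1 and 94.5, and Sdha led complex II at 74.0 and 68.5. The median complex I gene was at 32.1 and 29.3 CPM per kilobase. Ndufs5, an accessory subunit of complex I, was near the bottom at 2.38 and 2.20, and 21.7% of its windows are shared with BC002163, a listed copy at 8.06 to 10.7 CPM, so reads of the pair may have been divided.

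Other members could be touched by shared sequence or by genes on the opposite strand. At least 10% of the 50-base windows were shared with another annotated gene for 13 members, 6 of them called, and the exons of 28 members, 11 of them called, overlap those of a gene on the opposite strand. Among the 32 tested members with under 1% of windows shared and no such overlap, 19 were lower and 5 higher, with a median log2 fold change of -0.13. Complex I made up 16 of these, with 11 lower and 1 higher. Over all tested genes 58.7% were called, with 28.8% lower and 29.9% higher.

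Many subunit genes start close to a gene on the other strand. For 29 members a listed partner began within 1000 bases. Both genes of the pair were called in 8 cases, with 5 pairs lower, 2 higher and 1 opposite. In 9 pairs the member alone was called, in 5 the partner alone and in 7 neither, where 58.7% of all tested genes were called. Ndufa2 and Ik had log2 fold changes of -0.34 and -0.35, and Cox4i1 and Emc8 had 0.12 and 0.33. Ndufv3 and Wdr4 had -0.45 and -0.20, and Uqcrh and Lrrc41 had -0.24 and -0.14. In contrast Atp5a1 fell while Haus1 had 0.01 (adjusted p = 0.952). Across the 29 pairs, which share libraries and partly share bases, Pearson's r was 0.35 and Spearman's rho 0.50, as a description across genes.

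KO replicate 3 stood apart from the other KO libraries for these genes, and more so for short ones. Its median log2 difference from the other 2 KO libraries was -0.15 over the 17 members with under 1000 exonic bases, -0.13 over the 31 members with 1000 to 2000 and -0.06 over the 29 longer members. Over all tested genes the same medians were -0.04, -0.03 and 0.00. WT replicate 3 lay below its group by 0.05, 0.08 and 0.04. Without KO replicate 3, 18 members were higher rather than 11, among them 4 of complex I, and none changed by 1.5-fold. In that fit 28.9% of all tested genes were higher, against 29.9% with all libraries. The ratio of complex I to complexes II to V was 11.8% lower without that library. Split by length, 41.2% of the short, 45.2% of the middle and 48.3% of the long members were lower, where 14.7%, 24.8% and 30.4% of all genes were lower.

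**Figure D4:**
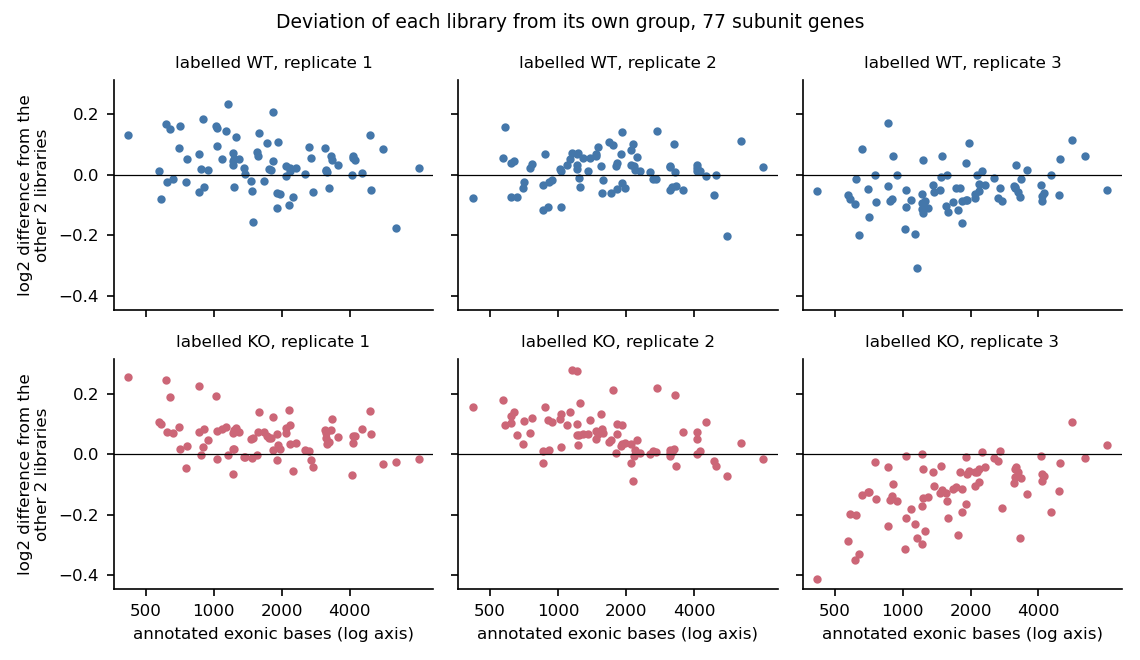
Log2 difference of each library from the mean of the other 2 libraries of its group, for the 77 tested subunit genes, against annotated exonic bases on a log axis. The points of KO replicate 3 lie mostly below 0 and lowest at short lengths, where the median of genes under 1000 bases is -0.15.

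Companion genes of the chain, from lists drawn up for this comparison, are read against the 28.8% of all tested genes that were lower and the 29.9% that were higher. The citric acid cycle and pyruvate dehydrogenase, which supply the chain with NADH, had 10 of 17 genes lower (58.8%) and 2 higher (11.8%), with a median log2 fold change of -0.11. Pdha1, a subunit of pyruvate dehydrogenase, was at 225.6 ± 2.41 against 169.7 ± 1.27 CPM (SD, n = 3), a log2 fold change of -0.41 (adjusted p = 6.66e-08). Idh2, which makes NADPH, had -0.38 (adjusted p = 1.23e-06), while Idh3a, of the NAD-linked isocitrate dehydrogenase, rose by 0.19 and Dlat by 0.13.

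The list of carriers and other inputs had 8 of 25 genes higher (32%) and 5 lower (20%). Its median log2 fold change was 0.02. Besides inputs to coenzyme Q and cytochrome c, the list holds membrane carriers and channels. It also holds Cyc1 of complex III and Ndufab1 of complex I, subunits that the symbol rule leaves out. Neither was called (log2 fold changes -0.06 and -0.05). The count of 5 was 3 under upper-quartile scaling, with total counts, with DESeq2 and without WT replicate 2 or KO replicate 3. Etfa and Etfb, which form the flavoprotein that passes on electrons from fatty acid oxidation, rose by 0.26 (adjusted p = 2.52e-05) and 0.29 (adjusted p = 0.0105) on the log2 scale. Sqor, the sulphide oxidase that feeds coenzyme Q, and Vdac2, a channel of the outer membrane, fell by 0.31 each (adjusted p = 1.2e-05 and 9.47e-07).

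Assembly factors, which build the complexes without staying in them, had 14 of 46 genes lower (30.4%, near the share of all genes) and 6 higher (13.0%), with a median log2 fold change of -0.08. The count of 6 was 3 with DESeq2 and 2 to 3 without WT replicate 1, WT replicate 3, KO replicate 1 or KO replicate 2. Sdhaf3, for complex II, and Cox20, for complex IV, each had a log2 fold change of -0.40 (adjusted p = 0.00173 and 0.000114). Foxred1, for complex I, rose by 0.38 (adjusted p = 0.000129) and Cox16, for complex IV, by 0.41 (adjusted p = 0.0143). The mitochondrial ribosome, which makes the subunits coded in mitochondrial DNA, had 24 of 77 genes lower (31.2%, near the share of all genes) and 10 higher (13.0%), with a median of -0.06. The 24 became 11 under upper-quartile scaling, 14 with total counts and 15 with DESeq2. In those fits 23.0%, 25.3% and 25.6% of all tested genes were lower. The 10 became 5 to 6 without WT replicate 2, KO replicate 1 or KO replicate 2, where 26.6% to 27.3% of all genes were higher. Mrpl13 was at 106, 118 and 118 against 49.3, 50.5 and 44.1 CPM, a log2 fold change of -1.25 ± 0.05 (SE, adjusted p = 9.1e-10), far beyond any subunit of the chain. Mrps18a had -0.44, Mrps31 0.31 and Mrps11 0.21. None of the 13 subunits coded in mitochondrial DNA was found in the table under the symbols searched.

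Regulators of mitochondrial biogenesis had 5 of 15 genes lower (33.3%, or 3 genes with DESeq2) and 3 higher (20%), with a median of -0.08. Ppargc1b and Ppargc1a, coactivators that drive the programme in many tissues, had log2 fold changes of -0.98 (adjusted p = 0.0137) and -0.75 (adjusted p = 0.0157). They rest on few reads, with 28, 29 and 33 against 8, 27 and 17 counts for Ppargc1b and 24, 36 and 41 against 20, 26 and 22 for Ppargc1a. Tfam, which packages mitochondrial DNA and helps start its transcription, rose by 0.32 (adjusted p = 0.000101). Polg, the polymerase that copies this DNA, rose by 0.20 (adjusted p = 0.000144). Of the factors whose motifs were searched above, named for that reason, Nrf1 had a log2 fold change of -0.11 (adjusted p = 0.0645), Gabpa 0.06 (adjusted p = 0.119) and Yy1 -0.40 (adjusted p = 1.36e-07).

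**Figure D5:**
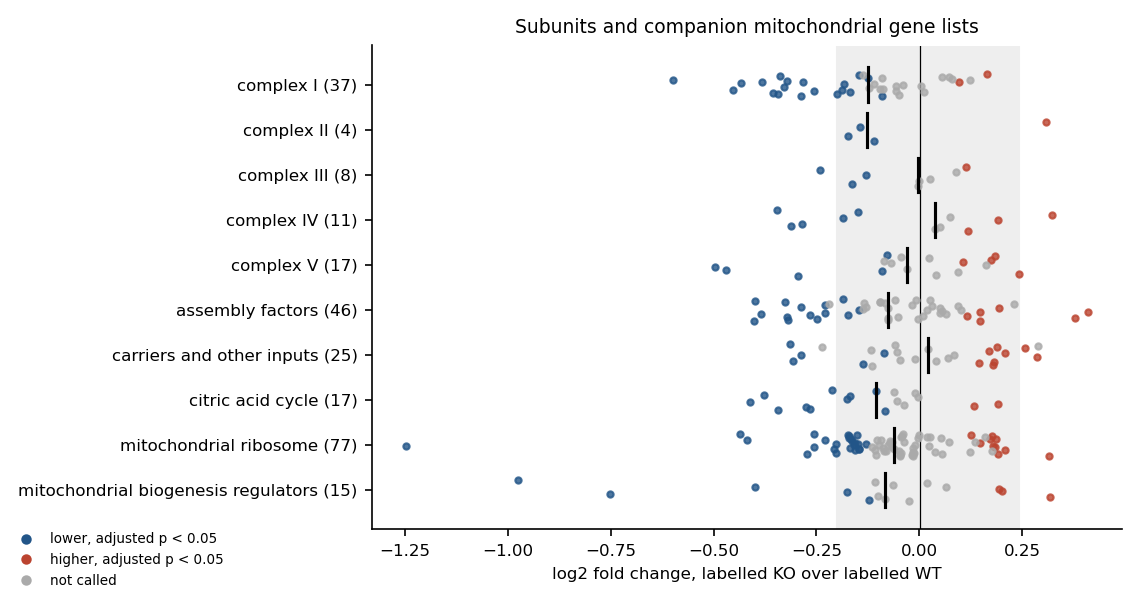
Log2 fold changes of the tested genes of each complex and companion list, with a bar at each median, the grey band from the lower to the upper quartile of all tested genes (-0.20 to 0.24) and the thin line at their median. Complex I and the citric acid cycle lie furthest to the left among the lists of over 10 genes, with medians of -0.12 and -0.11, and Mrpl13 is the leftmost point.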

How the data were processed

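Per gene, the authors deposited raw read counts and log2 CPM values. Per the submitters' processing notes, STAR 2.7.2b, featureCounts, limma and GRCm38.p6 were used; settings for strand and for reads with several matches are not given in the sources used here. The deposited log2 values, made by adding 0.5 to each count and scaling by library size, served as an alternative. The tables list 14831 genes.

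The members and lists were chosen with earlier results of these data known. Counts were tested with edgeR 4.0.16 (R 4.3.3), with TMM scaling, filterByExpr and the quasi-likelihood F test over 14289 genes with Benjamini-Hochberg adjustment, and a call is an adjusted p under 0.05. The standard error was taken from the fold change and its F statistic. Named genes were Gli2 and Gli3, members past 1.5-fold, up to 3 per direction and complex by size among the called, all Sdh genes, the isoforms, and up to 2 per direction and list. Positions, exonic lengths and shared 50-base windows came from GENCODE M21 (GRCm38). On simulated counts (50 genes per fold, 14107 tested), edgeR recovered 54% of 1.2-fold and 98% of 1.5-fold changes, with 7 false calls. In the data 58.7% of tested genes were called, so these shares do not give the power for the members. The smallest called change of a member was 0.08 on the log2 scale, and smaller differences could be missed. Totals of 31728420 to 41035931 counts set the precision. Alternatives were DESeq2 1.42.0, limma 3.58.1, other scalings and filters, a correction for GC content and length, and leaving out each library. 1 member is not reported here on its own, although sums, counts and medians over the members include all members.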

Additional observations from a re-analysis of the deposited data

How the results depend on the processing

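Of the 46 called members, 46 kept their sign and 27 their call under all 15 alternatives (22 of 35 lower, 5 of 11 higher). No paired analysis was possible because the labels give no numbers that pair the libraries. Upper-quartile scaling gave 23 members lower, 0 past 1.5-fold, 3 carriers and 11 ribosomal genes lower, median log2 fold changes of -0.033 (members), -0.068 (complex I) and 0.040 (complexes II to V), and log2 ratios of summed CPM of 0.032, 0.029 and 0.046 for complexes III, IV and V. Total counts gave 0 past 1.5-fold, 3 carriers and 14 ribosomal genes lower, a median of 0.018 for complexes II to V, and sums of 0.0094, 0.0068 and 0.023 for complexes III, IV and V. DESeq2 gave 1 complex I gene higher, 3 assembly factors higher, and 3 carriers, 3 biogenesis regulators and 15 ribosomal genes lower. The GC and length correction gave 17 members and 4 complex I genes higher, with medians of -0.038 (members), -0.076 (complex I) and 0.00960 (complexes II to V). An adjusted p under 0.01 left 6 members and 0 complex I genes higher. Leaving out 1 library at a time gave 5 to 18 members higher (18 without KO replicate 3), 0 to 4 of complex I, 0 to 1 past 1.5-fold, 2 to 5 assembly factors higher, 3 to 6 carriers lower, 5 to 12 ribosomal genes higher, a median of -0.052 to 0.026 for complexes II to V, and sums of -0.050 to 0.017 (III), -0.061 to 0.017 (IV) and -0.027 to 0.014 (V). Over all tested genes, the shares higher and lower were 36.3% and 23.0% under upper-quartile scaling and 33.9% and 25.3% with total counts. They were 26.1% and 25.6% with DESeq2 and 31.2% and 30.4% after the GC and length correction. With 1 library left out, 26.6% to 28.9% of all genes were higher and 25.7% to 28.1% lower. Atp5g2 turned to 0.027 (upper-quartile) and 0.0045 (total counts), and ranged from -0.062 to 0.0078 with 1 library left out. The causes were not tested. Depth limits the members under 1 CPM, Cox6a2 and Ndufa4l2.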
